A study of Arabidopsis thaliana with 31 samples.

Results

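The HD2 genes encode the HD2 type of histone deacetylase, a kind found in plants and not in animals or fungi. Arabidopsis thaliana has 4 of them, HD2A (AT3G44750), HD2B (AT5G22650), HD2C (AT5G03740) and HD2D (AT2G27840). They were taken by gene identifier and not by a measured value, though earlier results of these data were known when they were chosen. They make up 4 of the 32833 genes in each of 2 expression tables. All 4 had a mean of at least 1 in both tables, the filter for testing, which left 18322 genes in experiment A and 19507 in experiment B.

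RNA sequencing was done on whole seedlings harvested 12 days after germination, raised on soil in long days at about 21°C from seeds kept cold at 4°C for 4 days. Experiment A holds gcn5-7 (n = 3), arp6-1 (n = 3), the combined mutant gcn5-7 arp6-1 (n = 3) and the wild type Columbia-0 (n = 2). Experiment B holds gcn5-7, nrp1-1 nrp2-2, the combined mutant gcn5-7 nrp1-1 nrp2-2 and Columbia-0 (n = 5 each), for 31 libraries in all. GCN5 is a histone acetyltransferase, ARP6 belongs to the SWR1 complex, which puts H2A.Z into chromatin, and the chaperones NRP1 and NRP2 bind histones. Each mutation is carried by the whole plant. No treatment is labelled, and the labels do not say whether replicates came from separate sowings: the p-values cover nothing beyond the spread among the libraries sequenced. In whole seedlings a change in the number of cells that express a gene and a change in RNA per cell cannot be told apart.

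Histone deacetylases remove the acetyl groups that acetyltransferases such as GCN5 add to histone tails, and deacetylated histones are generally found at silent genes. HD2 proteins share a short conserved start and an acidic region, and in Arabidopsis they are found largely in the nucleolus, where ribosomal RNA is made. HD2A is known for its part in silencing ribosomal RNA genes, HD2C for responses to abscisic acid, salt and heat and for ribosomal RNA processing together with HD2B, and HD2A and HD2B for leaf polarity and root meristem size. HD2D, which has the shortest coding sequence, has been linked to root development, flowering time and cold and drought responses.

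The beginnings of the 4 coding sequences are shown because the genes are close relatives, and their levels can be set beside each other only if reads can be assigned to 1 of them. Each line gives the first 84 coding bases, read from RefSeq's TAIR10.1 assembly and spliced from a 13-base first coding exon and the 71-base second coding exon, and capitals mark the 34 bases that are the same in all 4 genes.
HD2A: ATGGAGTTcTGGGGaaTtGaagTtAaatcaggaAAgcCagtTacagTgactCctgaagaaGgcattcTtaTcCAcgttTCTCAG
HD2B: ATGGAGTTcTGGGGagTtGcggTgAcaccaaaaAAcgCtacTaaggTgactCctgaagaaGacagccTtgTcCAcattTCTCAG
HD2C: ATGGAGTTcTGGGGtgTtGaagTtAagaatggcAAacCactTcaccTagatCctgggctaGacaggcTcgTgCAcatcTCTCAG
HD2D: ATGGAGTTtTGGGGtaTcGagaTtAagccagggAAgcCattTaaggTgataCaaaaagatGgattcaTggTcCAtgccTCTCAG

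Differences fall every few bases even in this conserved stretch. In it HD2A and HD2B shared 64 of 84 bases, and HD2C and HD2D 47. Over the whole aligned coding sequence HD2A and HD2B were the closest pair, at 74.1% identical bases, and HD2B and HD2C the most distant, at 64.4%. The longest run of bases that any pair of spliced transcripts shared exactly was 20, between HD2B and HD2C, and the shortest such maximum was 12, between HD2A and HD2D. The genes lie on the plus strand of TAIR10.1, HD2A at chr3:16297656-16299876, HD2B at chr5:7533946-7536496, HD2C at chr5:981859-984289 and HD2D at chr2:11861806-11863908. Their exons add up to 1418, 1537, 1348 and 1290 bases, so they are of like length and their length-corrected levels can be compared.

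HD2A and HD2B each overlap a gene on the other strand. AT3G44740 covers 315 exon bases of HD2A, or 22.2% of its exon length, and AT5G22660 covers 261 exon bases of HD2B, or 17%. How strand was handled in counting is not given in the sources used here, so reads in these stretches cannot be told apart. The neighbours' own levels were low: in experiment B AT3G44740 averaged 5.95 in gcn5-7, 3.41 in nrp1-1 nrp2-2, 4.28 in gcn5-7 nrp1-1 nrp2-2 and 4.20 in Columbia-0, and AT5G22660 averaged at most 2.98 in any genotype. HD2C and HD2D share no exon with another annotated gene.

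Levels are given in the deposited unit, TPM (a transcript abundance corrected for gene length and library size) scaled by TMM (a factor per library from a trimmed mean of gene ratios). Depth, recovered from the steps between low values, was 38.3 to 39.6 megareads per library in experiment A and 10.3 to 16.8 megareads in experiment B. The HD2 values rest on 315 to 13650 reads in A and on 102 to 3010 reads in B. The targeted genes ARP6 and NRP2 were nearly absent from their mutants: ARP6 averaged 0.214 in arp6-1 and 0.514 in gcn5-7 arp6-1, against 27.2 in Columbia-0, and NRP2 averaged 0.208 in nrp1-1 nrp2-2, with every gcn5-7 nrp1-1 nrp2-2 library at 0, against 11.8 in Columbia-0. NRP1 averaged 6.91 in nrp1-1 nrp2-2 and 11.3 in gcn5-7 nrp1-1 nrp2-2, against 27.8 in Columbia-0. GCN5 averaged 8.39 in gcn5-7 and 6.74 in Columbia-0 in A, and 4.44 in gcn5-7 and 5.61 in Columbia-0 in B, so its summed RNA does not check the gcn5-7 label. In A, the replicate 1 libraries of gcn5-7, arp6-1 and Columbia-0 stood apart from the others on a first principal component that held 68.2% of the variance. In B, replicates 1 and 2 held 0.135 to 0.669% of their summed values in chloroplast genes, against 0.0966 to 0.212% in replicates 3 to 5.

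HD2B was the most abundant family member in every genotype of experiment B and kept a similar share of the summed HD2 level: 55.3% in gcn5-7, 49.6% in nrp1-1 nrp2-2, 53.0% in gcn5-7 nrp1-1 nrp2-2 and 51.0% in Columbia-0. In Columbia-0 the order of levels was HD2B at 82.2 ± 22.3, HD2C at 38.0 ± 11.6, HD2A at 21.3 ± 5.52 and HD2D at 19.5 ± 8.16 (SD, n = 5). HD2A and HD2D overlapped widely in that order, whereas every HD2B library lay above every HD2C library. In gcn5-7 nrp1-1 nrp2-2 HD2A, at 52.5 ± 13.1, and HD2C, at 48.8 ± 12.0, overlapped in level (SD, n = 5). The summed HD2 level averaged 251 ± 15.8 in gcn5-7, 214 ± 43.6 in nrp1-1 nrp2-2 and 283 ± 35.0 in gcn5-7 nrp1-1 nrp2-2, against 161 ± 37.6 in Columbia-0 (SD, n = 5 each).

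Experiment B asked what the loss of GCN5 does to expression with and without NRP1 and NRP2. HD2A and HD2B rose in gcn5-7 and rose in gcn5-7 nrp1-1 nrp2-2, both relative to Columbia-0, while HD2C and HD2D did not pass the test in either. That split depends on the fit. With the replicate number as a block HD2D was called in both, and some alternatives called HD2C in gcn5-7. The block called 9714 of all tested genes in gcn5-7, against 5118 without it, and 1787 against 474 in gcn5-7 nrp1-1 nrp2-2. All 4 genes had positive log2 fold changes in all 3 mutants against Columbia-0, and none passed the test in nrp1-1 nrp2-2. These 3 comparisons share the 5 Columbia-0 libraries, so they are not independent of each other.

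HD2B, in the order of replicates 1 to 5, measured 146, 151, 140, 133 and 122 in gcn5-7. It measured 138, 89.5, 92.5, 106 and 101 in nrp1-1 nrp2-2 and 173, 177, 126, 133 and 141 in gcn5-7 nrp1-1 nrp2-2. In Columbia-0 it measured 109, 104, 66.7, 66.3 and 65.0. Every gcn5-7 library and every gcn5-7 nrp1-1 nrp2-2 library lay above every Columbia-0 library, while nrp1-1 nrp2-2 overlapped with Columbia-0. Of all tested genes, 9.37% lay wholly above Columbia-0 in gcn5-7 and 2.36% in gcn5-7 nrp1-1 nrp2-2.

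HD2A was likewise lowest in Columbia-0 and highest in gcn5-7 nrp1-1 nrp2-2 by its mean, but averaged 39.5 in nrp1-1 nrp2-2 and 37.0 in gcn5-7, where HD2B was higher in gcn5-7. Its values were 35.8, 41.2, 31.6, 42.3 and 33.9 in gcn5-7, a narrow range. They were 44.4, 20.4, 22.9, 63.7 and 46.3 in nrp1-1 nrp2-2 and 49.0, 39.3, 41.8, 68.8 and 63.5 in gcn5-7 nrp1-1 nrp2-2. Columbia-0 gave 17.6, 26.7, 16.8, 28.0 and 17.7. Again no library of gcn5-7 or gcn5-7 nrp1-1 nrp2-2 overlapped with Columbia-0, while nrp1-1 nrp2-2 held both the lowest value outside Columbia-0 and values near the top.

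HD2C measured 43.1, 59.1, 45.6, 43.5 and 43.5 in gcn5-7 and 56.4, 41.3, 39.7, 41.8 and 37.1 in nrp1-1 nrp2-2. It measured 58.8, 64.3, 37.1, 42.1 and 41.5 in gcn5-7 nrp1-1 nrp2-2 and 56.5, 41.9, 29.7, 33.5 and 28.3 in Columbia-0. All 4 genotypes overlapped, and Columbia-0 replicate 1, at 56.5, was exceeded only by replicate 2 of gcn5-7 and by replicates 1 and 2 of gcn5-7 nrp1-1 nrp2-2.

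HD2D, the least abundant member, measured 20.8, 21.1, 22.7, 41.5 and 34.4 in gcn5-7 and 27.1, 23.4, 10.4, 34.9 and 34.5 in nrp1-1 nrp2-2. It measured 30.4, 27.0, 19.2, 42.2 and 39.3 in gcn5-7 nrp1-1 nrp2-2 and 19.1, 23.4, 9.54, 30.8 and 14.5 in Columbia-0. The genotypes overlapped here too, and the highest library of each genotype was replicate 4.

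**Figure D1:**
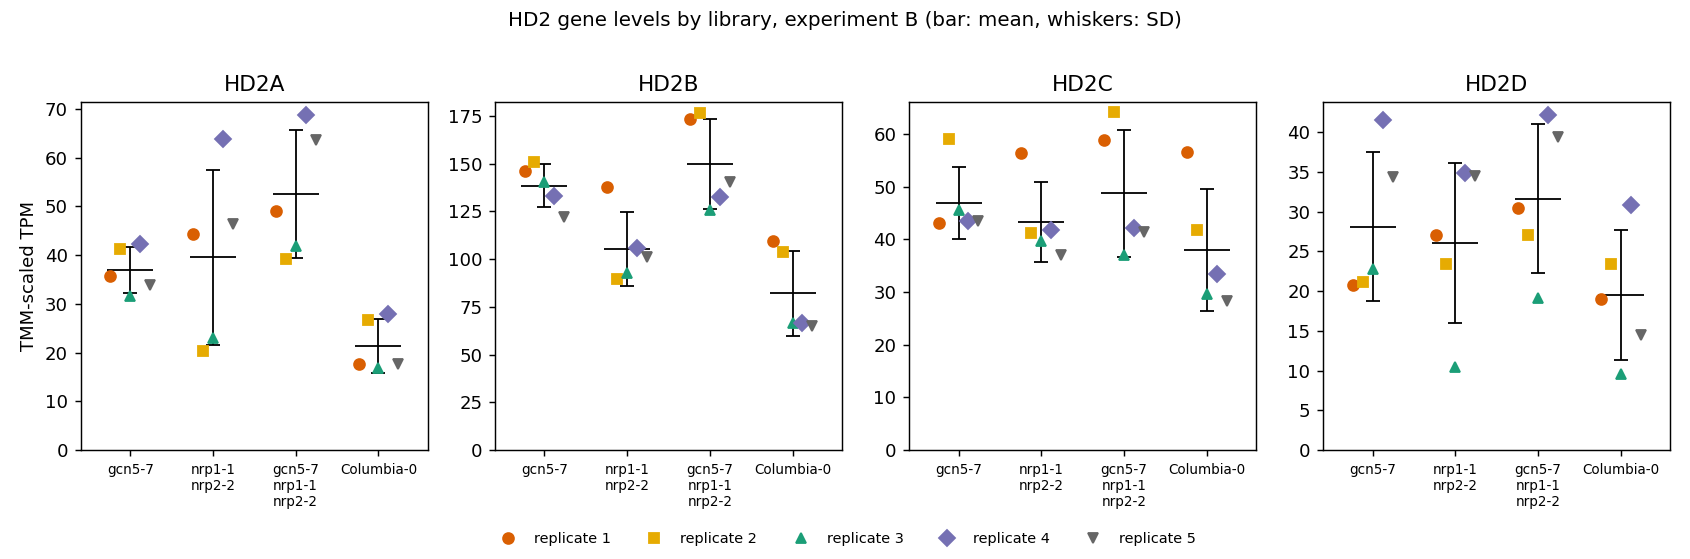
Level of each HD2 gene (vertical axis, TMM-scaled TPM, starting at 0) in each library of experiment B by genotype, with the marker giving the replicate number, the bar the mean and the whiskers the SD (n = 5). HD2A and HD2B lie wholly above Columbia-0 in gcn5-7 and in gcn5-7 nrp1-1 nrp2-2, and replicate 4 is the highest library of HD2A and HD2D in all 4 genotypes.

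Against Columbia-0, 2 of the 4 genes were called in gcn5-7, both higher, where 26.2% of all tested genes were called and 11.6% were called higher (limma, Benjamini-Hochberg adjusted p below 0.05 over all tested genes). HD2B averaged 139 ± 11.4 in gcn5-7 and 82.2 ± 22.3 in Columbia-0 (SD, n = 5 each), a log2 fold change of 0.78 ± 0.18 (SE) with an adjusted p of 0.00476. HD2A averaged 37.0 ± 4.65 in gcn5-7 and 21.3 ± 5.52 in Columbia-0, a log2 fold change of 0.79 ± 0.26 (SE) with an adjusted p of 0.0344. HD2C averaged 47.0 ± 6.87 in gcn5-7 and 38.0 ± 11.6 in Columbia-0, and HD2D 28.1 ± 9.37 in gcn5-7 and 19.5 ± 8.16 in Columbia-0. HD2C had a log2 fold change of 0.33 ± 0.20 (95% interval -0.08 to 0.75, adjusted p 0.210) and HD2D of 0.55 ± 0.33 (95% interval -0.14 to 1.24, adjusted p 0.213). The HD2B call held in each of the 10 fits that left out 1 library, with adjusted p from 0.00337 to 0.0158. The HD2A call held in 3 of them and was lost in 7, those without Columbia-0 replicate 1, 3 or 5 and those without gcn5-7 replicate 1, 2, 4 or 5, with adjusted p from 0.0323 to 0.0814 and log2 fold changes from 0.72 to 0.89.

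In gcn5-7 nrp1-1 nrp2-2 the same 2 genes were called higher against Columbia-0, in a comparison that called 2.43% of all tested genes and 1.28% as higher. HD2A averaged 52.5 ± 13.1 in gcn5-7 nrp1-1 nrp2-2 and 21.3 ± 5.52 in Columbia-0 (SD, n = 5 each), a log2 fold change of 1.26 ± 0.26 (SE) with an adjusted p of 0.0104 by limma. HD2B averaged 149.9 ± 23.6 in gcn5-7 nrp1-1 nrp2-2 and 82.2 ± 22.3 in Columbia-0, a log2 fold change of 0.88 ± 0.18 (SE) with an adjusted p of 0.00771. Both calls held in each of the 10 fits without 1 library. HD2D, at 31.6 ± 9.34 in gcn5-7 nrp1-1 nrp2-2 and 19.5 ± 8.16 in Columbia-0, had a log2 fold change of 0.72 ± 0.33 (unadjusted p 0.0404, adjusted p 0.373). With the replicate number as a block, which pairs these libraries, HD2D was called with the same log2 fold change and an adjusted p of 0.0246. The block fit called 1787 of 19507 tested genes in that comparison, against 474 without the block. HD2C had a log2 fold change of 0.37 ± 0.20 (95% interval -0.05 to 0.78, adjusted p 0.496).

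In nrp1-1 nrp2-2, 0 of the 4 genes were called against Columbia-0 by limma, where 0.39% of all tested genes were called. At an unadjusted p below 0.05, 2 of the 4 passed, as did 1105 of all 19507 tested genes. HD2A averaged 39.5 ± 18.0 in nrp1-1 nrp2-2 and 21.3 ± 5.52 in Columbia-0, a log2 fold change of 0.77 ± 0.26 (unadjusted p 0.00865, adjusted p 0.452). Its log2 fold change lay near the 0.79 of gcn5-7, while its SD was 18.0 in nrp1-1 nrp2-2 and 4.65 in gcn5-7. HD2B averaged 105 ± 19.2 in nrp1-1 nrp2-2 and 82.2 ± 22.3 in Columbia-0, a log2 fold change of 0.38 ± 0.18 (unadjusted p 0.0483, adjusted p 0.874). HD2C had a log2 fold change of 0.21 ± 0.20 and HD2D of 0.39 ± 0.33, both with an adjusted p of 0.983.

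No member was called between the combined mutant and either parent. Against gcn5-7, where 3.21% of tested genes were called, HD2A had the largest difference, at 0.47 ± 0.26 (adjusted p 0.306), and the other 3 lay between 0.03 and 0.17, with no member at an unadjusted p below 0.05. Against nrp1-1 nrp2-2, where 0.713% were called, HD2B differed by 0.51 ± 0.18 (unadjusted p 0.0102, adjusted p 0.271), the only member at an unadjusted p below 0.05. That cut was passed by 2354 of 19507 tested genes. With the replicate block, HD2B was called there, with the same difference and an adjusted p of 0.0319. The block fit called 1237 of all tested genes in that comparison, against 139 without the block. The interaction asks whether gcn5-7 nrp1-1 nrp2-2 departs from the sum of the changes in gcn5-7 and nrp1-1 nrp2-2, and 0.041% of tested genes were called for it. No HD2 gene was, and none had an unadjusted p below 0.05, with values of -0.30 ± 0.37 for HD2A, -0.27 ± 0.25 for HD2B, -0.18 ± 0.28 for HD2C and -0.22 ± 0.46 for HD2D. The 95% interval for HD2A runs from -1.08 to 0.48.

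**Figure D2:**
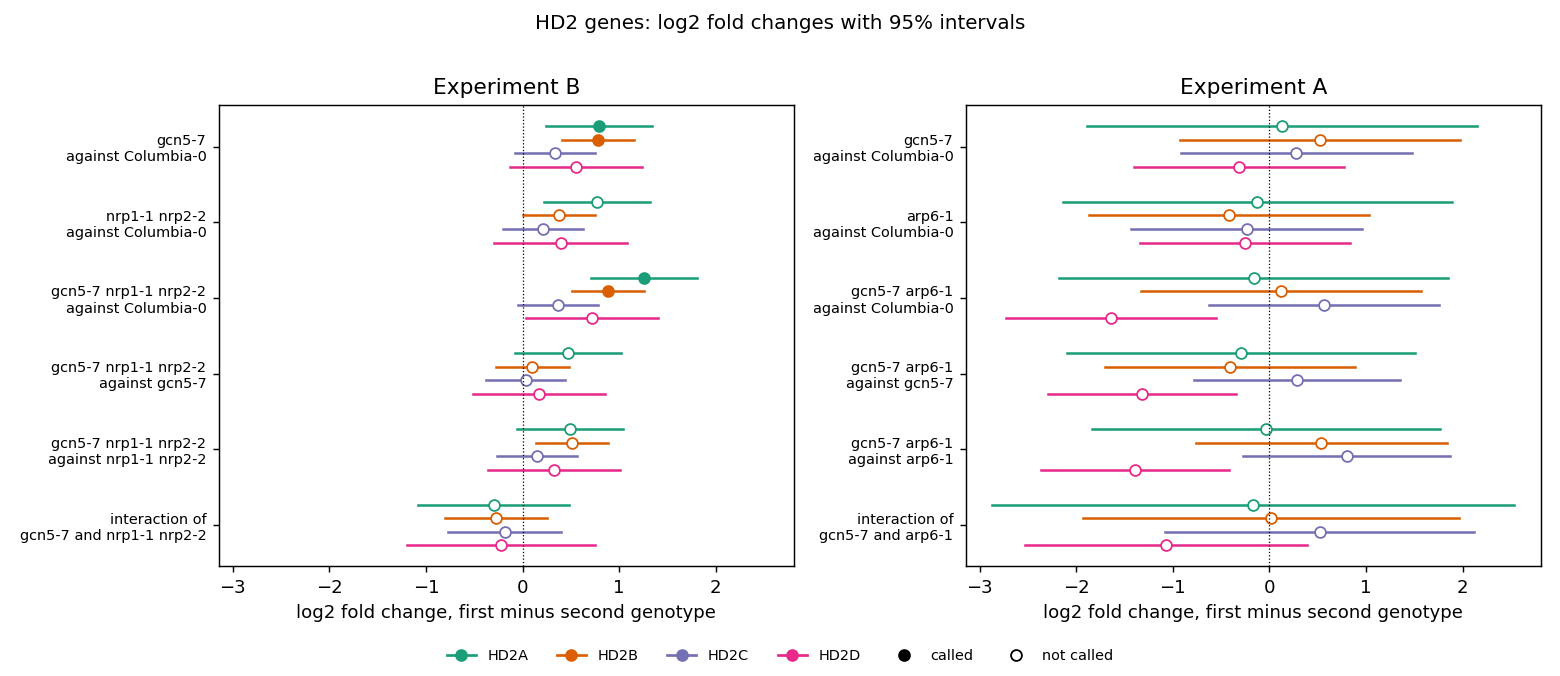
Log2 fold change of each HD2 gene in each comparison (horizontal axis, log2 of value + 1, first genotype minus second), with 95% intervals, for experiment B on the left and experiment A on the right; filled points were called. The called points are HD2A and HD2B in gcn5-7 and in gcn5-7 nrp1-1 nrp2-2 against Columbia-0 in B, and HD2D lies to the left of 0 in the comparisons of gcn5-7 arp6-1 in A.

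The replicate numbers carried a pattern that split the family into pairs. Replicate 4 was the highest library for HD2A and for HD2D in all 4 genotypes of B, and replicate 3 was the lowest for HD2D in 3 of 4. For HD2B, replicate 1 was among the highest 2 libraries in 4 of 4 genotypes and replicate 2 in 3 of 4, and for HD2C each of them was so in 3 of 4. With genotype means removed, HD2B and HD2C had an r of 0.89 over the 20 libraries and HD2A and HD2D an r of 0.72, while the other 4 pairs had r of at most 0.20. The labels do not say what a replicate number marks, and no cause was tested. Replicates 1 and 2 are also those with more chloroplast RNA, and HD2C had an r of 0.62 with the chloroplast share, against 0.27 for HD2B, -0.13 for HD2A and 0.01 for HD2D (n = 20 libraries).

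The rise of HD2A and HD2B was looked at within these replicate numbers. In replicates 3 to 5 alone, the log2 fold change of HD2B was 0.98 ± 0.12 in gcn5-7 (adjusted p 0.00144) and 1.00 ± 0.12 in gcn5-7 nrp1-1 nrp2-2 (adjusted p 0.00187), both against Columbia-0. In replicates 1 and 2 alone it was 0.48 ± 0.31 in gcn5-7 (adjusted p 0.268) and 0.71 ± 0.31 in gcn5-7 nrp1-1 nrp2-2 (adjusted p 0.772), with 2 libraries a group. HD2A gave 0.79 ± 0.34 in gcn5-7 and 1.44 ± 0.34 in gcn5-7 nrp1-1 nrp2-2 in replicates 3 to 5 (adjusted p 0.138 and 0.0487), and 0.80 ± 0.38 and 0.98 ± 0.38 in replicates 1 and 2 (adjusted p 0.151 and 0.694). All of these were positive. HD2C in gcn5-7 was called in replicates 3 to 5 alone, at 0.52 ± 0.12 (adjusted p 0.0211), where 2347 of 19507 tested genes were called.

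A pair of technical measures was also read in the gcn5-7 libraries of B, and only the column sums set them apart from Columbia-0. The rank correlation between a library's deviations and exon length ran from 0.09 to 0.38 in gcn5-7, inside the range of -0.44 to 0.40 in Columbia-0. After a correction for that trend the log2 fold changes in gcn5-7 were as large, 0.92 for HD2A and 0.88 for HD2B. HD2C was then called at 0.48 (adjusted p 0.0279), where 5537 of 19390 tested genes were called. The column sums of gcn5-7 were 704073 to 821849, against 852074 to 1315400 in Columbia-0. With columns rescaled to equal sums all 4 genes were called higher in gcn5-7, at 1.19 for HD2A, 1.19 for HD2B, 0.74 for HD2C and 0.95 for HD2D, but this scaling moved the median of all tested genes to 0.41, against 0.06 as deposited. It also moved the split of all calls to 4608 higher and 1533 lower, against 2254 higher and 2864 lower as deposited.

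In experiment A, which asked the same of GCN5 with and without ARP6, no HD2 gene was called in any comparison by limma. HD2D came nearest: in gcn5-7 arp6-1 it lay below every library of every other genotype. In the replicate 1 libraries that stand apart the other 3 genes were low, and HD2D was the highest of its genotype in gcn5-7 and Columbia-0.

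HD2D, in the order of replicates, measured 39.7, 39.1 and 39.8 in gcn5-7 arp6-1, a range far narrower than in the other genotypes. It measured 152, 77.3 and 85.3 in gcn5-7 and 115, 116 and 87.5 in arp6-1, against 216 and 72.3 in Columbia-0. The nearest library of another genotype, Columbia-0 replicate 2 at 72.3, was well above the 3 combined mutant libraries.

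HD2A measured 26.1, 75.3 and 103 in gcn5-7, 13.5, 84.2 and 102 in arp6-1 and 53.2, 40.9 and 50.9 in gcn5-7 arp6-1, against 23.7 and 120.5 in Columbia-0. HD2B measured 99.1, 163 and 258 in gcn5-7, 42.5, 103 and 131 in arp6-1 and 127, 117 and 119 in gcn5-7 arp6-1, against 55.8 and 223 in Columbia-0. HD2C measured 24.1, 43.7 and 67.4 in gcn5-7, 21.7, 28.8 and 37.9 in arp6-1 and 45.3, 55.6 and 51.9 in gcn5-7 arp6-1, against 19.5 and 58.7 in Columbia-0. In each of these 3 genes the lowest library of gcn5-7, arp6-1 and Columbia-0 was replicate 1, and the combined mutant, all of whose libraries lie on the other side of the split, lay between the lowest and the highest Columbia-0 library for all 3.

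**Figure D3:**
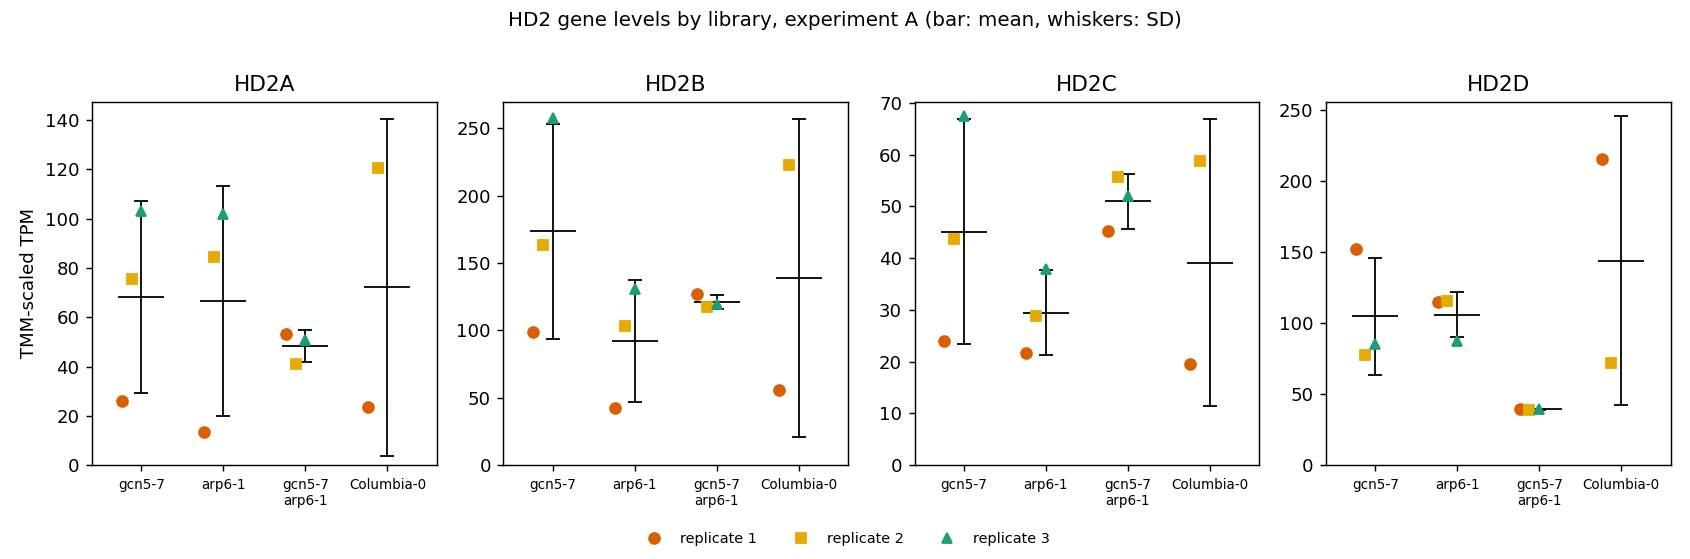
Level of each HD2 gene (vertical axis, TMM-scaled TPM, starting at 0) in each library of experiment A by genotype, with the marker giving the replicate number, the bar the mean and the whiskers the SD (n = 3, and n = 2 for Columbia-0). Replicate 1 of gcn5-7, arp6-1 and Columbia-0 is low for HD2A, HD2B and HD2C, and the 3 libraries of gcn5-7 arp6-1 sit at 39.1 to 39.8 for HD2D, below all others.

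By limma, HD2D in gcn5-7 arp6-1 averaged 39.5 ± 0.374 (SD, n = 3) and had a log2 difference of -1.64 ± 0.49 (SE) from Columbia-0, at 144 ± 101 (SD, n = 2), with an adjusted p of 0.108. It differed by -1.32 ± 0.44 from gcn5-7, at 105 ± 41.1 (SD, n = 3), with an adjusted p of 0.0691, and by -1.39 ± 0.44 from arp6-1, at 106 ± 15.9 (SD, n = 3), with an adjusted p of 0.0555. The share of tested genes called was 2.06% against Columbia-0, 13.7% against gcn5-7 and 14.8% against arp6-1. Libraries of gcn5-7 arp6-1 lay wholly below those of Columbia-0 in 21.9% of tested genes, below gcn5-7 in 24.4% and below arp6-1 in 28.8%, so lack of overlap was common here. HD2C in gcn5-7 arp6-1 lay wholly above arp6-1, as 34.3% of tested genes did, with a log2 difference of 0.80 ± 0.48 (adjusted p 0.216). At an unadjusted p below 0.05, HD2D passed in each of the 3 comparisons and no other member did. That cut was passed by 4476, 6173 and 7736 of 18322 tested genes against Columbia-0, gcn5-7 and arp6-1, so passing was common. Leaving out Columbia-0 replicate 2 made the HD2D difference from Columbia-0 -2.42 (adjusted p 0.0162), the 1 call among the 5 fits without 1 library of that comparison.

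The HD2D difference from both parents was called in both fits that took the libraries that stand apart into account. No label sets those 3 libraries apart. They were picked from these same values, so the fits are not separate support for the difference. A term for those 3 libraries called 2514, 7445 and 8470 of 18322 tested genes in gcn5-7 arp6-1 against Columbia-0, gcn5-7 and arp6-1. With that term the HD2D difference was -1.23 against Columbia-0 (adjusted p 0.0259), -1.05 against gcn5-7 (adjusted p 0.010) and -1.12 against arp6-1 (adjusted p 0.00595). Without those libraries it was -0.86 against Columbia-0 (adjusted p 0.0749, with 1 library left in that group and its spread taken from the others), -1.02 against gcn5-7 (adjusted p 0.00442) and -1.33 against arp6-1 (adjusted p 0.000998). The interaction for HD2D was -1.07 ± 0.66 with all libraries (adjusted p 0.366, where 1.38% of tested genes were called) and -1.49 without those libraries. Calls against both parents and for the interaction were far more common among all tested genes without those libraries than with all of them. Across the 11 libraries HD2D had an r of -0.91 with the exon length trend, which ran from 0.64 to 0.66 in gcn5-7 arp6-1 and lay at -0.63 and 0.56 in Columbia-0. After the correction for that trend the difference was -1.31 from Columbia-0, -0.99 from gcn5-7 and -0.95 from arp6-1, with adjusted p of 0.0988, 0.0652 and 0.0904. With columns rescaled to equal sums it was -0.92, -0.98 and -0.58 against the same genotypes, and no member was called. The chloroplast share had an r of 0.60 with HD2D and of -0.83 to -0.92 with the other 3 genes (n = 11 libraries), and its part in these values was not tested.

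HD2A was also called under the same term, which called 2514, 7445 and 8470 of 18322 tested genes against Columbia-0, gcn5-7 and arp6-1. With all libraries it differed by -0.16 ± 0.91 between gcn5-7 arp6-1 and Columbia-0, and with the term it was called lower in gcn5-7 arp6-1, by -1.27 ± 0.29 against Columbia-0 (adjusted p 0.0190), -1.03 ± 0.26 against gcn5-7 (adjusted p 0.00881) and -0.78 ± 0.26 against arp6-1 (adjusted p 0.0273). HD2B was called lower with the term only against gcn5-7, by -0.89 ± 0.25 (adjusted p 0.0165). HD2C was not called under it in any comparison. None of these calls is made by the fit of all libraries without the term. Without the 3 libraries HD2A was called lower against Columbia-0 (-1.31), gcn5-7 (-0.86) and arp6-1 (-0.93), and HD2B against gcn5-7 (-0.75). Calls against both parents were common among all tested genes in that fit too.

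In the single mutants of A no HD2 gene was called. In gcn5-7 against Columbia-0, where 0.142% of tested genes were called, the log2 fold changes were 0.13 ± 0.91 for HD2A, 0.52 ± 0.66 for HD2B, 0.28 ± 0.54 for HD2C and -0.32 ± 0.49 for HD2D, with no unadjusted p below 0.05. The 95% intervals for HD2B, -0.93 to 1.98, and for HD2A, -1.89 to 2.14, are wide and hold the values found for gcn5-7 in B. With the term for the libraries that stand apart, HD2A was at -0.24 ± 0.28 and HD2B at 0.28 ± 0.27. Without those libraries, which left 1 library in Columbia-0, HD2A was at -0.45 and HD2B at -0.12. The rise of HD2A in B was thus not seen in either fit, and HD2B was positive only in the fit with the term. In arp6-1, where 0.0164% of tested genes were called, the 4 values lay between -0.42 and -0.12, again with no unadjusted p below 0.05. Within genotypes of A, HD2A, HD2B and HD2C moved together over the 11 libraries, with r of 0.85 to 0.97, and HD2D moved against them, with r of -0.75 to -0.91. In B, HD2D had an r of 0.72 with HD2A; the difference between the tables was not tested.

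The nucleolar proteins among which HD2 proteins are found were taken as a list of 26 genes for nucleolar proteins and ribosome biogenesis factors. This list, like the others, was chosen with earlier results of these data known. Of the 25 tested in B, 16 were called higher and 0 lower in gcn5-7 against Columbia-0, where 11.6% of all tested genes were called higher, with a median log2 fold change of 0.83, against 0.06 for all tested genes. In gcn5-7 nrp1-1 nrp2-2 9 were called higher and 0 lower, where 1.28% of all tested genes were called higher. The list's median there was 0.84, against 0.03 for all tested genes. In nrp1-1 nrp2-2 0 were called by limma, where 0.39% of all tested genes were called. Of the list, 10 had an unadjusted p below 0.05, and its median was 0.47, against -0.05 for all tested genes. Over all tested genes, 1105 of 19507 passed that unadjusted cut. The counts of higher calls ran from 6 to 23 in gcn5-7 and from 0 to 17 in gcn5-7 nrp1-1 nrp2-2 over the alternatives tried, with medians of 0.75 to 1.23 in gcn5-7 and of 0.78 to 0.96 in gcn5-7 nrp1-1 nrp2-2. In nrp1-1 nrp2-2 they ran from 0 to 5, with medians of 0.13 to 0.66. Calls over all tested genes, in either direction, also varied over these alternatives. They ran from 2347 to 9714 in gcn5-7, from 7 to 1787 in gcn5-7 nrp1-1 nrp2-2 and from 7 to 334 in nrp1-1 nrp2-2. The HD2 medians in the same comparisons were 0.67 in gcn5-7, 0.39 in nrp1-1 nrp2-2 and 0.80 in gcn5-7 nrp1-1 nrp2-2.

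Members of that list with the smallest adjusted p give the size. NOP56, a core protein of the particles that methylate ribosomal RNA, averaged 88.2 ± 9.18 in gcn5-7 and 35.6 ± 4.13 in Columbia-0 (SD, n = 5 each), a log2 fold change of 1.29 ± 0.27 (adjusted p 0.00248). FIB2, one of the fibrillarins that carry out that methylation, averaged 88.2 ± 19.2 in gcn5-7 nrp1-1 nrp2-2 and 34.2 ± 12.1 in Columbia-0, a change of 1.39 ± 0.26 (adjusted p 0.00411). AT5G15550 (WDR12), a factor for the large ribosomal subunit, averaged 21.9 ± 2.40 in gcn5-7 and 25.0 ± 3.71 in gcn5-7 nrp1-1 nrp2-2, against 12.2 ± 2.65 in Columbia-0, with adjusted p of 0.00233 and 0.00178.

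In A, in gcn5-7 arp6-1 against Columbia-0, 1 of 26 was called, where 2.06% of all tested genes were called. The called gene was NUC2, a nucleolin whose gene is the minor one of a pair in wild-type seedlings. It averaged 9.66 ± 1.46 in gcn5-7 arp6-1 (n = 3), against 0.645 ± 0.336 in gcn5-7, 0.763 ± 0.0677 in arp6-1 (n = 3 each) and 0.5 ± 0.272 in Columbia-0 (SD, n = 2), with adjusted p of 0.00254 against Columbia-0 and 0.0263 for the interaction. In gcn5-7 of B, NUC2 averaged 1.68 ± 0.634 and in Columbia-0 0.257 ± 0.151, but its mean over that table was too low for the test. Against the parents, 3 of 26 were called higher and 2 lower relative to gcn5-7, and 6 higher and 2 lower relative to arp6-1, where 13.7% and 14.8% of all tested genes were called in either direction. In gcn5-7 and in arp6-1 against Columbia-0 0 were called and 0 had an unadjusted p below 0.05. Over all tested genes, 0.142% and 0.0164% were called there, and 1561 and 333 of 18322 passed the unadjusted cut.

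**Figure D4:**
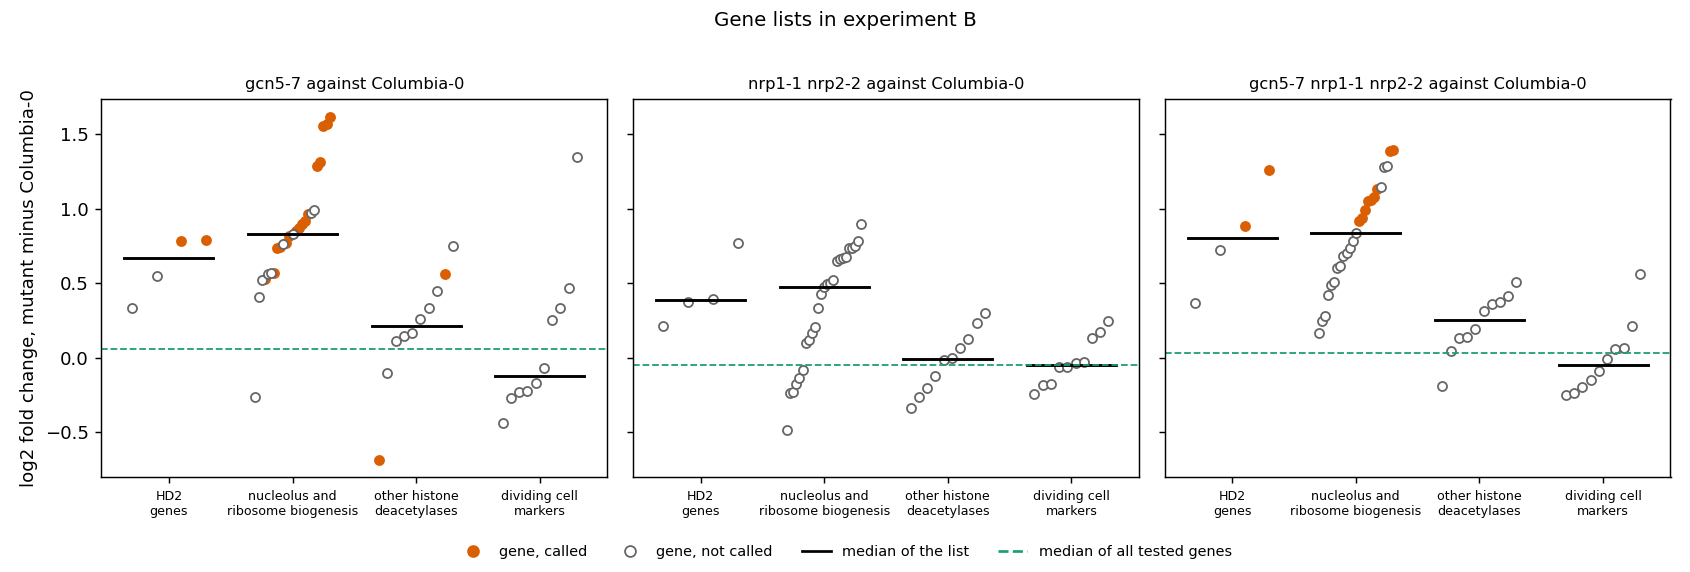
Log2 fold changes (vertical axis, mutant minus Columbia-0) of the tested genes of 4 lists in experiment B, 1 panel per mutant, with called genes filled, the list's median as a black line and the median of all tested genes as a dashed line. In gcn5-7 the HD2 median is 0.67 and that of the nucleolus and ribosome biogenesis list 0.83, against 0.06 for all tested genes.

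The other 14 histone deacetylase genes, of the RPD3 and sirtuin types give the background for other deacetylases. Of the 10 tested in B, 1 was called higher and 1 lower in gcn5-7 against Columbia-0, a share no higher than the 26.2% of all tested genes, with a median of 0.21 against 0.06 for all tested genes. HDA5 averaged 32.0 in gcn5-7 and 21.1 in Columbia-0, a log2 fold change of 0.56 ± 0.19 (adjusted p 0.0328). HDA14, which lies in organelles, averaged 24.3 in gcn5-7 and 39.3 in Columbia-0, a change of -0.69 ± 0.19 (adjusted p 0.0124). By limma 0 were called in gcn5-7 nrp1-1 nrp2-2 and 0 in nrp1-1 nrp2-2 against Columbia-0, where 2 and 0 had an unadjusted p below 0.05, with medians of 0.25 and -0.01. The unadjusted cut was passed by 2374 and 1105 of 19507 tested genes, and 2.43% and 0.39% of all tested genes were called. In A, of 11 tested, 1 was called, HDA18, at 2.87 in gcn5-7 arp6-1 and 0.397 in gcn5-7 (adjusted p 0.0266), where 13.7% of all tested genes were called.

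A further list held 10 reported partners and targets of HD2 proteins. In gcn5-7 against Columbia-0 in B 2 of 10 were called, both higher, where 11.6% of all tested genes were called higher and 26.2% in either direction, so the count is no result about the list. They were BRM, a SWI/SNF remodeller ATPase that interacts with HD2C, at 16.5 in gcn5-7 and 5.52 in Columbia-0 (1.67 ± 0.52, adjusted p 0.0252), and HSP101, a heat shock chaperone, at 19.7 and 4.89 in the same genotypes (1.68 ± 0.48, adjusted p 0.0169). The list's median was -0.03, against 0.06 for all tested genes. By limma 0 were called in gcn5-7 nrp1-1 nrp2-2 and in nrp1-1 nrp2-2 against Columbia-0, where 2 and 0 had an unadjusted p below 0.05. That cut was passed there by 2374 and 1105 of 19507 tested genes, and 2.43% and 0.39% of all tested genes were called. In A 2 were called higher in gcn5-7 arp6-1 against gcn5-7, COR47 and BRM, 2 against arp6-1, BRM and HSP101, in comparisons that called 13.7% and 14.8% of all tested genes.

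Nucleolar genes are typically high in dividing tissue, so markers of dividing cells were set beside them. Of the 10 markers, 0 were called by limma in B in gcn5-7, nrp1-1 nrp2-2 or gcn5-7 nrp1-1 nrp2-2 against Columbia-0, and 1, 0 and 0 had an unadjusted p below 0.05. Over all tested genes, 26.2%, 0.39% and 2.43% were called, and 7872, 1105 and 2374 of 19507 passed the unadjusted cut. The summed level of the markers ran from 84.8 to 103 in gcn5-7, from 59.9 to 123 in nrp1-1 nrp2-2 and from 67.0 to 117 in gcn5-7 nrp1-1 nrp2-2, against 72.9 to 118 in Columbia-0, and no marker was at 0 throughout a genotype. In A 1 was called in gcn5-7 arp6-1 against each parent, CYCB1;1 against gcn5-7 and MCM2 against arp6-1, below the 13.7% and 14.8% of all tested genes. Of 5 root markers 1 was tested, PYK10, which rose in gcn5-7 to 120.4, against 48.0 in Columbia-0 (1.25 ± 0.30, adjusted p 0.00691). The summed root markers ran from 71.2 to 207 in gcn5-7, from 13.5 to 37.7 in nrp1-1 nrp2-2 and from 21.4 to 58.7 in gcn5-7 nrp1-1 nrp2-2, against 36.1 to 66.3 in Columbia-0, and 2 or 3 of the 5 were at 0 throughout each genotype. The sum was largely PYK10, since every other root marker had a mean below 1, so it adds little to that gene. The part of root tissue in the HD2A and HD2B values of gcn5-7 was not tested. The 5 seed and embryo markers summed to at most 0.465 in any library of B, and none was tested.

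The genes whose levels followed each HD2 gene most closely over the 20 libraries of B were taken as the 5 with the highest Pearson r among tested genes with a symbol. These r values mix differences between genotypes with those between replicate numbers and are descriptions. HD2B was followed by NUC-L1, the major nucleolin (NUC1), with r of 0.93, and by NAP57, the pseudouridine synthase of the nucleolus also called CBF5, with r of 0.92, then by HLL, ATRPAC42 and SURF1 with r of 0.88 to 0.89. Over the 11 libraries of A the first 2 had r of 0.86 and 0.65. ATRPAC42, a subunit of RNA polymerase I, had r of 0.95 in A.

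HD2A was followed by WDR55 with r of 0.94, TRM11, a tRNA methylation factor, with 0.92, and PMH1, a mitochondrial RNA helicase, with 0.91, then by MORF1 and EDA7. All 5 had r of 0.66 to 0.93 in A. HD2C was followed by SUR1, an enzyme of glucosinolate synthesis, with r of 0.88, and by BBC1, a ribosomal protein, with 0.87. In A SUR1 had an r of 0.04 with HD2C, BBC1 one of 0.80 and SK4, another of the 5, one of -0.79. HD2D was followed by UBQ5, a ubiquitin and ribosomal fusion protein, and XW6, each with r of 0.86, and in A their r was 0.70 and 0.94. The next 2, TRM82 and CYCA3;2, had r of -0.44 and 0.75 in A.

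The nearest tested genes on either side were read to see whether a neighbourhood moved with its HD2 gene. Around HD2B, emb1211, which lies 89 bases before it, averaged 50.6 in gcn5-7 and 49.6 in Columbia-0 in B (0.14, adjusted p 0.810). Around HD2A, AT3G44740 changed by 0.42 in gcn5-7 against Columbia-0 (adjusted p 0.12). AT2G27830, which lies 281 bases before HD2D, was called higher in nrp1-1 nrp2-2, at 12.7 ± 5.62, and in gcn5-7 nrp1-1 nrp2-2, at 10.4 ± 4.58, against 2.44 ± 0.680 in Columbia-0 (SD, n = 5 each), with log2 fold changes of 1.92 and 1.64 and adjusted p of 0.00281 and 0.00248. HD2D itself was not called in either by that test. ATCSLA09, a mannan synthase gene that lies 1333 bases beyond HD2C, was called lower in gcn5-7, at 35.4 ± 12.1, against 73.4 ± 19.6 in Columbia-0 (-1.05, adjusted p 0.0281), while HD2C was not called.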

How the data were processed

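RNA was sequenced from 31 whole-seedling samples. Reads were handled with fastp 0.23.4 and HISAT2 2.2.1 and the build was TAIR10, per the submitters' processing notes; the read counter, its strand setting and the annotation are not stated in the sources at hand. The deposited signal values are TPM scaled by TMM by the authors, per the file headers, in 1 table per experiment, and the tables were never pooled. Whole reads were recovered from low values, within a tolerance of 0.05 reads, to state depth only.

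Values were tested as log2(value + 1), so fold changes are on that scale and understate changes of low genes. limma 3.58.1 in R 4.3.3 (trend and robust options) fitted all groups of a table together, over genes with a mean of at least 1, with Benjamini-Hochberg adjustment over all tested genes and a call below 0.05. The procedure was tested on simulated data in which libraries varied independently. Those data lacked the patterns that libraries share here, so that test does not cover them. Alternatives were a pseudocount of 0.1, no filter, only the groups compared, the replicate block, equal column sums, quantile normalization, a correction for exon length, each library left out, and, in A, a term for or removal of the 3 libraries that stand apart and, in B, a term separating replicates 1 and 2 from 3 to 5, or either set alone. Libraries with the same number were taken as paired where groups had at least 3 such pairs and every r of their deviations was above 0.1. All B comparisons met that rule except gcn5-7 against Columbia-0, where the lowest r was 0.0185. In A no compared groups met it. Columbia-0 had only 2 pairs with each mutant, though its lowest r was 0.573 with gcn5-7 and 0.401 with arp6-1. For gcn5-7 arp6-1 the lowest r was 0.0386 with Columbia-0, 0.0407 with gcn5-7 and -0.0334 with arp6-1.

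Genes named are the HD2 genes, the targeted genes, the nearest tested neighbours, the 5 most alike genes per HD2 gene, and at most 3 called members per list and comparison with the smallest adjusted p. The members and lists were chosen with earlier results of these data known. Sequences and coordinates are RefSeq's TAIR10.1.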

Additional observations from a re-analysis of the deposited data

Results flagged for a closer look

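HD2C gave the 2 values that lay far from the other libraries of their genotype, among 16 gene and genotype groups of 5 libraries examined in experiment B. In gcn5-7 the highest library, replicate 2, measured 59.1 TMM-scaled TPM, against 43.1 to 45.6 in the other 4. In nrp1-1 nrp2-2 the highest library, replicate 1, measured 56.4, against 37.1 to 41.8 in the other 4. The gap to the nearest library, divided by the whole range, passed 0.71 in both, a limit that chance alone passes in about 1 of 20 groups.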

How the results depend on the processing

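In gcn5-7 arp6-1 against Columbia-0 in A, 378 of 18322 tested genes were called as reported. The replicate block called 2477, and the term for the 3 libraries that stand apart 2514. Against gcn5-7, 2504 were called as reported and 4913 with only the groups compared. The block called 6952, quantile normalization 3845 and the term 7445. Against arp6-1 the counts were 2715, 7692, 9117, 4662 and 8470 in that order. The number of HD2 genes called by limma changed as follows. In A, gcn5-7 arp6-1 against Columbia-0 gave 0 as reported, 1 with the replicate block, 2 with the term for the 3 libraries that stand apart, 1 without those libraries and 0 to 1 without 1 library. Against gcn5-7 it gave 0 as reported, 1 with only the groups compared, with the replicate block and with quantile normalization, and 3 with the term and without those libraries. Against arp6-1 it gave 0 as reported, 1 with only the groups compared, with the replicate block and with quantile normalization, and 2 with the term and without those libraries. The A interaction gave 1 without those libraries. In B, gcn5-7 against Columbia-0 gave 2 as reported and 4 with equal sums. It gave 3 with the replicate block, quantile normalization and the length correction. In replicates 1 and 2 alone it gave 0, and without 1 library 1 to 2. Over all 19507 tested genes it called 5118 as reported, 6141 with equal sums, 9714 with the block and 6063 with quantile normalization. The length correction called 5537 of 19390, and replicates 1 and 2 alone called 4217. For gcn5-7 nrp1-1 nrp2-2 against Columbia-0 the number was 2 as reported, 3 with the replicate block and 0 in replicates 1 and 2 alone. Those fits called 474, 1787 and 7 of all tested genes. Against nrp1-1 nrp2-2 the combined mutant gave 1 with the replicate block, equal sums and quantile normalization. There 1237, 102 and 182 of all tested genes were called. With the replicate block HD2D was called in gcn5-7 against Columbia-0 in B (0.55, adjusted p 0.0248), where the numbers do not pair the libraries by the rule used, and in gcn5-7 arp6-1 in A (-1.56 against Columbia-0, -1.32 against gcn5-7 and -1.39 against arp6-1, adjusted p 0.0363, 0.0166 and 0.0101). The causes were not tested. No HD2 value that was called as reported changed sign. Uncalled log2 fold changes changed sign as follows. In A without the 3 libraries that stand apart, gcn5-7 against Columbia-0 gave -0.45 (HD2A), -0.12 (HD2B), -0.11 (HD2C) and 0.17 (HD2D), arp6-1 against Columbia-0 gave 0.47 (HD2D), gcn5-7 arp6-1 against Columbia-0 gave -0.87 (HD2B) and -0.21 (HD2C), and against gcn5-7 -0.096 (HD2C). With the term for those libraries, HD2A in gcn5-7 gave -0.24, HD2B in gcn5-7 arp6-1 against Columbia-0 -0.60, HD2C against gcn5-7 -0.065 and the HD2B interaction -0.23. With the replicate block, HD2A in gcn5-7 gave -0.19, HD2B in gcn5-7 arp6-1 against Columbia-0 -0.099 and the HD2A interaction 0.15. With equal sums, HD2D in gcn5-7 gave 0.053, HD2A in gcn5-7 arp6-1 gave 0.54 against Columbia-0, 0.051 against gcn5-7 and 0.74 against arp6-1, and its interaction 0.26. With quantile normalization, HD2A in gcn5-7 arp6-1 gave 0.0095 against Columbia-0 and 0.23 against arp6-1, its interaction 0.13, and HD2B against gcn5-7 0.062. With the length correction, HD2A against arp6-1 gave 0.20 and its interaction 0.11. In B, replicates 1 and 2 alone gave -0.012 for HD2D in gcn5-7 and -0.013 for HD2C in nrp1-1 nrp2-2, both against Columbia-0, and interactions of 0.17 (HD2B), 0.29 (HD2C) and 0.19 (HD2D). For gcn5-7 nrp1-1 nrp2-2 against gcn5-7, equal sums gave -0.18 (HD2B), -0.25 (HD2C) and -0.11 (HD2D), quantile normalization -0.085 (HD2B) and -0.062 (HD2C), the length correction -0.081 (HD2C), and replicates 3 to 5 alone -0.14 (HD2C) and -0.0077 (HD2D). Without 1 library, values in A ran as follows. In gcn5-7 against Columbia-0 they ran from -1.02 to 1.28 (HD2A), -0.46 to 1.51 (HD2B), -0.49 to 1.05 (HD2C) and -1.10 to 0.46 (HD2D), and in arp6-1 from -1.27 to 1.02 (HD2A), -1.41 to 0.57 (HD2B), -1.01 to 0.54 (HD2C) and -1.03 to 0.53 (HD2D). In gcn5-7 arp6-1 against Columbia-0 they ran from -1.31 to 0.99 (HD2A), -0.87 to 1.11 (HD2B) and -0.21 to 1.34 (HD2C). Against gcn5-7 they ran from -0.86 to 0.11 (HD2A) and -0.096 to 0.63 (HD2C), against arp6-1 from -0.93 to 0.48 (HD2A), and for the interaction from -1.32 to 0.98 (HD2A), -0.98 to 1.00 (HD2B) and -0.25 to 1.29 (HD2C). In B, HD2C in gcn5-7 nrp1-1 nrp2-2 against gcn5-7 ran from -0.075 to 0.12. Where leaving out a library left 1 in Columbia-0, that library was assumed to vary like the other groups. Interactions use all groups, so a fit with only the groups compared was not run for them. Medians of all tested genes moved with equal sums, to 0.77 in gcn5-7 arp6-1 against Columbia-0, as against 0.18 as deposited. HD2D in B rests on 102 to 719 reads a library, the lowest range of the 4 HD2 genes there.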
